A study of Mus musculus with 23 samples.

Results

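The plasminogen system and tissue factor genes are the 9 genes *Plau*, *Plat*, *Plaur*, *Plg*, *Serpine2*, *Serpinb2*, *F3*, *Tfpi* and *Thbd*, taken by symbol from the 43068 genes listed for the crush libraries and the 22880 genes listed for the inducible knockout (iKO) libraries. All 9 were found in both lists. They were followed by total RNA sequencing of mouse sciatic nerves (SNs) in 7 groups and 23 libraries. The crush experiment used wild-type C57bl6 mice, with crushed nerves at 3 days post crush (3 dpc, n = 4), contralateral nerves from crush-operated mice (n = 4) and uncrushed surgery controls (n = 3). The operated mice were males of 2 months at surgery, and no age was given for the uncrushed controls. By the methods of the study, the contralateral nerve was taken from the operated animals, so the crushed and contralateral groups share mice, but no source says which nerves belong together. The crushed samples were distal segments between 1 and 8 mm from the injury. The iKO experiment used P0-CreERT2 -/+ Dicer1 flox/flox mice (Dicer iKO) and P0-CreERT2 -/+ Dgcr8 flox/flox mice (Dgcr8 iKO), each with P0-CreERT2 -/- controls of the same floxed allele (n = 3 in each of the 4 groups). The labels give the same C57bl6 background for the mice of the iKO experiment. All iKO and control mice received tamoxifen on 5 consecutive days at 8 to 10 weeks of age and were sampled 3 months post tamoxifen (3 mpT). The transgene is active in Schwann cells, so that deletion was aimed at Schwann cells of the adult nerve and not at its other cells. Mutant nerves had been preselected by their morphology.

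Plasminogen is a circulating zymogen made mainly by the liver. It is cut to plasmin, which degrades fibrin and other matrix proteins, by urokinase (uPA, from *Plau*) bound to its receptor (uPAR, from *Plaur*) or by tissue-type plasminogen activator (tPA, from *Plat*). Protease nexin-1 (from *Serpine2*) inhibits urokinase, tPA, plasmin and thrombin, and plasminogen activator inhibitor type 2 (from *Serpinb2*) inhibits urokinase. Fibrin itself is laid down by coagulation, which tissue factor (from *F3*) starts, tissue factor pathway inhibitor (from *Tfpi*) restrains, and thrombomodulin (from *Thbd*) turns towards the protein C anticoagulant pathway. After nerve injury, fibrin that leaks into the nerve is cleared by plasmin, and Schwann cells, macrophages, endothelial cells and axons can all make parts of this system.

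Total counts ranged from 6617600 to 12805921 per crush library and from 5594838 to 10143207 per iKO library. A level of 3 counts, taken as the floor of detection, corresponded to 0.235 to 0.513 and to 0.286 to 0.518 CPM (counts scaled to library size). Floors and intervals take in counting error alone, since reads were not tagged by molecule and may be copies of each other. The 2 experiments differed in library kit and transcript list and were never compared by a test. *Dicer1* lay between 81.3 and 82.1 CPM in Dicer iKO and between 87.4 and 90.5 CPM in its controls, and *Dgcr8* between 39.4 and 54.0 CPM in Dgcr8 iKO and between 35.4 and 41.8 CPM in its controls. These are counts over whole genes, which include exons outside the floxed part and cells without Cre, so they do not check the deletion. The myelinating Schwann cell markers (*Mbp*, *Pmp22*, *Prx*, *Mag* and *Egr2*) summed to between 22684 and 29863 CPM in the control nerves of the crush experiment and to between 778 and 1148 CPM in crushed nerves. The Dicer control libraries varied among themselves, with summed fibroblast markers between 4554 and 14756 CPM. In whole nerves, fewer cells of a type and less RNA per cell cannot be told apart.

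*Serpine2*, the inhibitor, was the most abundant of the 9 genes per transcript length in every group. Length-scaled levels are given as a percentage of the summed TPM (counts scaled to transcript length and library size) of the 9 genes within a library, because a single gene took between 61.4% and 71.8% of all TPM in the crush libraries and between 2.93% and 9.44% in the iKO libraries. In uncrushed nerves *Serpine2* made up 64.2% to 65.9% of this sum, *F3* 16.3% to 19.2%, *Plat* 8.81% to 12.7% and *Tfpi* 3.08% to 4.05%. *Thbd* followed with 1.10% to 2.36%, overlapping *Plau* with 0.712% to 1.23%. Contralateral nerves had the same order, with *Serpine2* at 68.1% to 71.4%, *F3* at 10.6% to 16.0% and *Plat* at 9.41% to 11.1%, so that the latter 2 genes overlapped.

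In crushed nerves the order was different. *Serpine2* made up 40.1% to 58.2% of the summed TPM, *Plat* 21.1% to 32.8% and *Thbd* 6.99% to 10.2%. *Tfpi* (4.29% to 5.57%), *Plaur* (3.49% to 6.55%) and *Plau* (2.93% to 4.67%) overlapped with each other, and *F3* was below them at 1.66% to 2.40%. Tissue factor thus went from the second place in control nerves to the seventh. In the control nerves of the iKO experiment, *Plat* came before *F3*. In Dicer controls the ranges of *Serpine2* (28.2% to 36.8%) and *Plat* (24.9% to 30.4%) overlapped, whereas in Dgcr8 controls *Serpine2* stood apart at 52.7% to 60.4%. In both mutants *Plau* reached the range of *Thbd*, at 7.17% to 10.8% in Dicer iKO and 4.67% to 10.6% in Dgcr8 iKO, against 2.42% to 3.90% and 1.24% to 1.57% in the controls.

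The summed TPM of both activators, *Plau* and *Plat*, was set against that of *Serpine2* in each library as a description with no test. It was 14.5% to 21.8% of the *Serpine2* level in uncrushed nerves, 14.6% to 16.5% in contralateral nerves and 41.4% to 89.4% in crushed nerves. The crushed nerves lay above all control nerves, and the highest of them was crushed replicate 1, which had the lowest *Serpine2*. In the iKO experiment the mutants did not lie above their controls. The value was 53.1% to 70.55% in Dicer iKO, below the 78.4% to 119.7% of Dicer controls, and 41.1% to 50.6% in Dgcr8 iKO, overlapping the 35.7% to 47.7% of Dgcr8 controls.

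**Figure D1:**
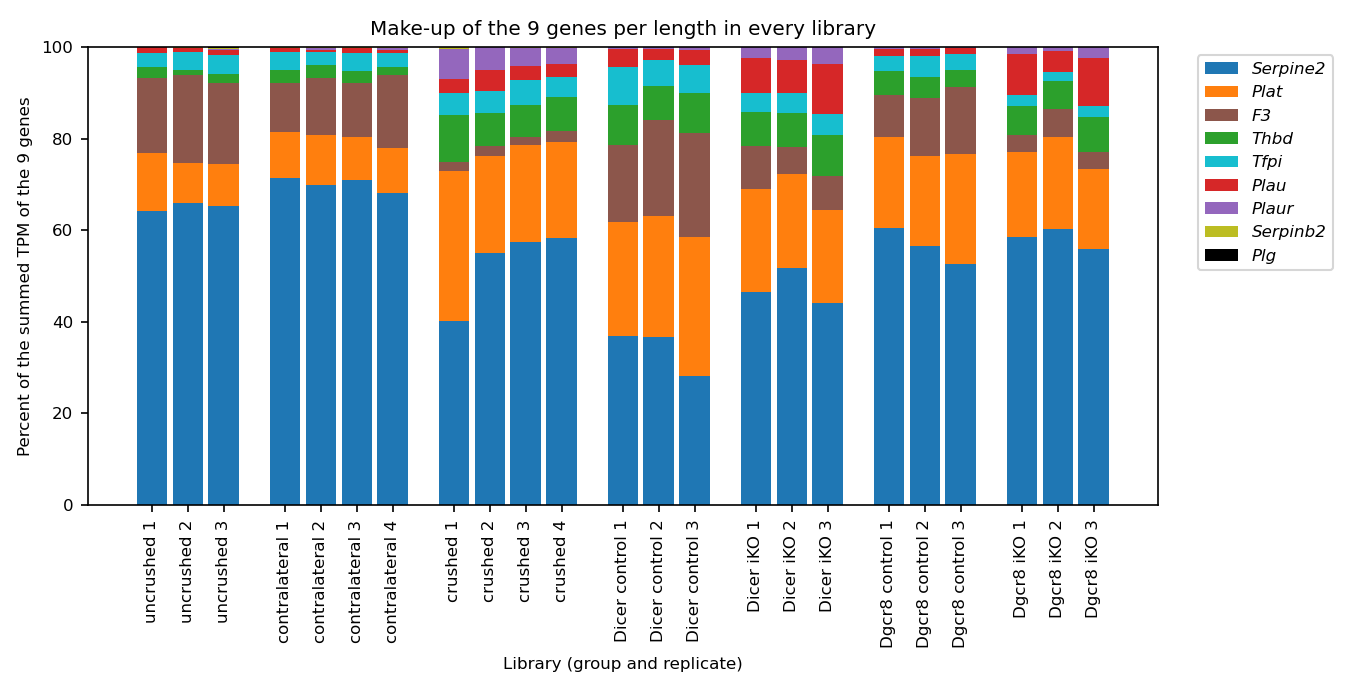
Each bar is a library, named by group and replicate, and shows what percentage of the summed TPM of the 9 genes each gene made up. *Serpine2* fills 64.2% to 71.4% of the bars of uncrushed and contralateral nerves and 40.1% to 58.2% of those of crushed nerves, where *Plat*, *Thbd* and *Plaur* take more and *F3* takes 1.66% to 2.40%.

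Changes were tested by edgeR's quasi-likelihood test across all genes, and a gene was called higher or lower if it changed by 2-fold or more and its Benjamini-Hochberg adjusted p was 0.05 or less. Of the 9 genes, 7 had enough counts to be tested in the crush and iKO comparisons. In crushed against uncrushed nerves, 4 of the 7 tested genes were called higher (*Plau*, *Plaur*, *Plat* and *Thbd*) and 1 lower (*F3*), where 15.3% of all 17433 tested genes were called higher and 21.1% lower. The median log2 fold change of the 7 genes was 1.80, beside -0.0321 over all tested genes. Against contralateral nerves the same 5 genes were called in the same directions, beside 14.6% of 16667 tested genes called higher and 13.6% lower, and the median was 1.76 beside -0.0588. These 2 comparisons share the crushed nerves and are not independent. *Plaur* passed the filter on low counts only through the crushed nerves, so the filter favoured a call of higher. The counts and medians given here include it.

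Urokinase, which starts plasmin formation at the cell surface, rose after crush. *Plau* (ENSMUSG00000021822, GRCm38 chr14:20836660-20843385, plus strand) was at 3.33, 2.25 and 3.08 CPM in the uncrushed nerves, at 2.08, 1.33, 2.61 and 1.74 CPM in the contralateral nerves, and at 9.38, 21.2, 13.5 and 12.6 CPM in the crushed nerves. The crushed nerves overlapped neither control group, and crushed replicate 2 was the highest. *Plau* changed on the log2 scale by 2.38 (SE 0.28, adjusted p = 1.31e-05) against uncrushed and 2.89 (SE 0.26, adjusted p = 1.60e-07) against contralateral nerves.

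*Plaur*, which anchors urokinase to cells, was near absent in control nerves and rose the most. Its counts were 1, 2 and 2 in the uncrushed nerves and 2, 8, 3 and 7 in the contralateral nerves, against 143, 154, 118 and 91 in the crushed nerves (ENSMUSG00000046223, chr7:24462484-24475968, plus strand). The control nerves were at or around the floor of detection, so the fitted fold depends on the prior count. As a ratio of summed counts scaled to library size, crushed nerves held 54.5 times the level of uncrushed nerves (exact 95% counting interval 23.2 to 168.7) and 23.5 times that of contralateral nerves (15.1 to 38.9). The fitted log2 fold changes were 5.76 (SE 0.32, adjusted p = 1.83e-08) and 4.53 (SE 0.26, adjusted p = 1.34e-09).

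The other activator, tPA, rose as well and with little spread. *Plat* (ENSMUSG00000031538, chr8:22757727-22782844, plus strand) was at 38.4, 29.9 and 26.7 CPM in uncrushed nerves, at 28.6 to 34.7 CPM in contralateral nerves, and at 107.8, 103.2, 106.6 and 97.4 CPM in crushed nerves. No crushed nerve came near a control nerve. *Plat* rose by a log2 fold change of 1.80 (SE 0.13, adjusted p = 1.67e-07) against uncrushed and 1.76 (SE 0.09, adjusted p = 2.76e-10) against contralateral nerves.

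Plasminogen, the substrate of both activators, was hardly detected. *Plg* (ENSMUSG00000059481, chr17:12378608-12419385, plus strand) had at most 5 counts in any library, in uncrushed replicate 3, and 0 counts in 10 of the 23 libraries. It did not pass the filter on low counts in any comparison, and no fold is given. Hepatocyte markers (*Alb*, *Apoa1*, *Ahsg* and *Apob*) summed to at most 4.96 CPM, also in an uncrushed nerve.

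The inhibitor *Serpine2* did not pass the test after crush. *Serpine2* (ENSMUSG00000026249, chr1:79794197-79861180, minus strand) was at 107.3, 116.1 and 101.2 CPM in uncrushed nerves, at 112.1, 122.0, 117.5 and 108.4 CPM in contralateral nerves, and at 76.7, 139.6, 140.8 and 132.7 CPM in crushed nerves. Of the 4 crushed nerves, 3 lay above every control nerve and crushed replicate 1 below every control nerve. Over all 4, the log2 fold change was 0.28 (SE 0.18, adjusted p = 0.177) against uncrushed and 0.10 (SE 0.15, adjusted p = 0.549) against contralateral nerves. Without crushed replicate 1 it was 0.42 (adjusted p = 0.0022) and 0.24 (adjusted p = 0.0112), still under 2-fold. The other inhibitor, *Serpinb2* (ENSMUSG00000062345, chr1:107511423-107535478, plus strand), had 0 counts in 12 of the 23 libraries and at most 4 in all others except crushed replicate 1, which had 11. It was not tested in any comparison.

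Tissue factor, the start of coagulation, fell after crush, and it was the only tested gene of the 9 called lower. *F3* (ENSMUSG00000028128, chr3:121723537-121735048, plus strand) was at 31.6, 42.8 and 36.6 CPM in uncrushed nerves, at 22.3, 27.0, 25.4 and 35.5 CPM in contralateral nerves, and at 4.73, 6.67, 6.05 and 7.92 CPM in crushed nerves. Every crushed nerve was far below every control nerve. *F3* fell by 2.44 on the log2 scale (SE 0.17, adjusted p = 9.24e-08) against uncrushed nerves and by 2.10 (SE 0.17, adjusted p = 5.08e-08) against contralateral nerves. The perineurial markers *Slc2a1*, *Cldn1* and *Itgb4* summed to 326 to 456 CPM in the control nerves and to 106 to 121 CPM in crushed nerves, with 1 of 3 called lower. Most of this sum was *Itgb4*, the marker called lower, with means of 297 and 348 CPM in uncrushed and contralateral nerves and 83.7 CPM in crushed nerves, whereas *Cldn1* had log2 fold changes of 0.46 and 0.78 and was not called. All 5 myelinating Schwann cell markers were called lower. The pericyte and smooth muscle markers (*Pdgfrb*, *Rgs5*, *Acta2* and *Myh11*) summed to 187 to 232 CPM in the control nerves and to 190 to 226 CPM in crushed nerves. Of these 4, 0 were called in either direction, with negative log2 fold changes for *Pdgfrb* (-0.65 and -0.98) and positive ones for the others. The part of these cells in the fall of *F3* was not tested.

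The anticoagulant receptor *Thbd* rose. *Thbd* (ENSMUSG00000074743, chr2:148404466-148408188, minus strand) was at 10.5, 5.63 and 8.89 CPM in uncrushed nerves, at 7.49 to 13.2 CPM in contralateral nerves, and at 49.9, 52.5, 52.2 and 50.8 CPM in crushed nerves. The crushed nerves were tightly grouped and apart from the controls. *Thbd* rose by a log2 fold change of 2.70 (SE 0.16, adjusted p = 3.12e-08) and 2.20 (SE 0.13, adjusted p = 2.99e-09). *Thbd* is a classical endothelial gene, and the summed endothelial markers (*Pecam1*, *Cdh5*, *Kdr*, *Tek*, *Flt1*, *Cldn5* and *Emcn*) were at 156 to 187 CPM in the control nerves and at 196 to 236 CPM in crushed nerves, with 2 of 7 called higher and 0 lower. *Cldn5* (-0.62 and -0.91) and *Kdr* (-0.26 and -0.55) had negative log2 fold changes, and the other markers positive ones. The part of endothelial cells in the rise of *Thbd* was not tested.

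*Tfpi*, which blocks the tissue factor complex, rose by less than 2-fold. *Tfpi* (ENSMUSG00000027082, chr2:84432855-84476775, minus strand) was at 7.20, 12.4 and 9.23 CPM in uncrushed nerves, at 7.38 to 10.3 CPM in contralateral nerves and at 11.1, 16.5, 18.2 and 13.4 CPM in crushed nerves. Crushed nerves overlapped the uncrushed but not the contralateral nerves. The log2 fold change was 0.74 (SE 0.20, adjusted p = 0.00697) and 0.72 (SE 0.15, adjusted p = 0.000683). Without uncrushed replicate 2 it was 1.01 (adjusted p = 0.00182), which passes both thresholds.

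Contralateral and uncrushed nerves were also compared with each other. They came from different mice, and no age was given for the uncrushed surgery controls. An effect of the crush on the other side thus cannot be told apart from other differences between these mice. None of the 6 tested genes was called by edgeR, nor by DESeq2, and 0% of 17722 tested genes were called by edgeR in either direction, with 3165 at an unadjusted p under 0.05. *Plaur* did not pass the filter here. Of the 6 genes, 1 had an unadjusted p under 0.05 in edgeR, *F3*, with a log2 fold change of -0.43 (SE 0.15, adjusted p = 0.191).

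**Figure D2:**
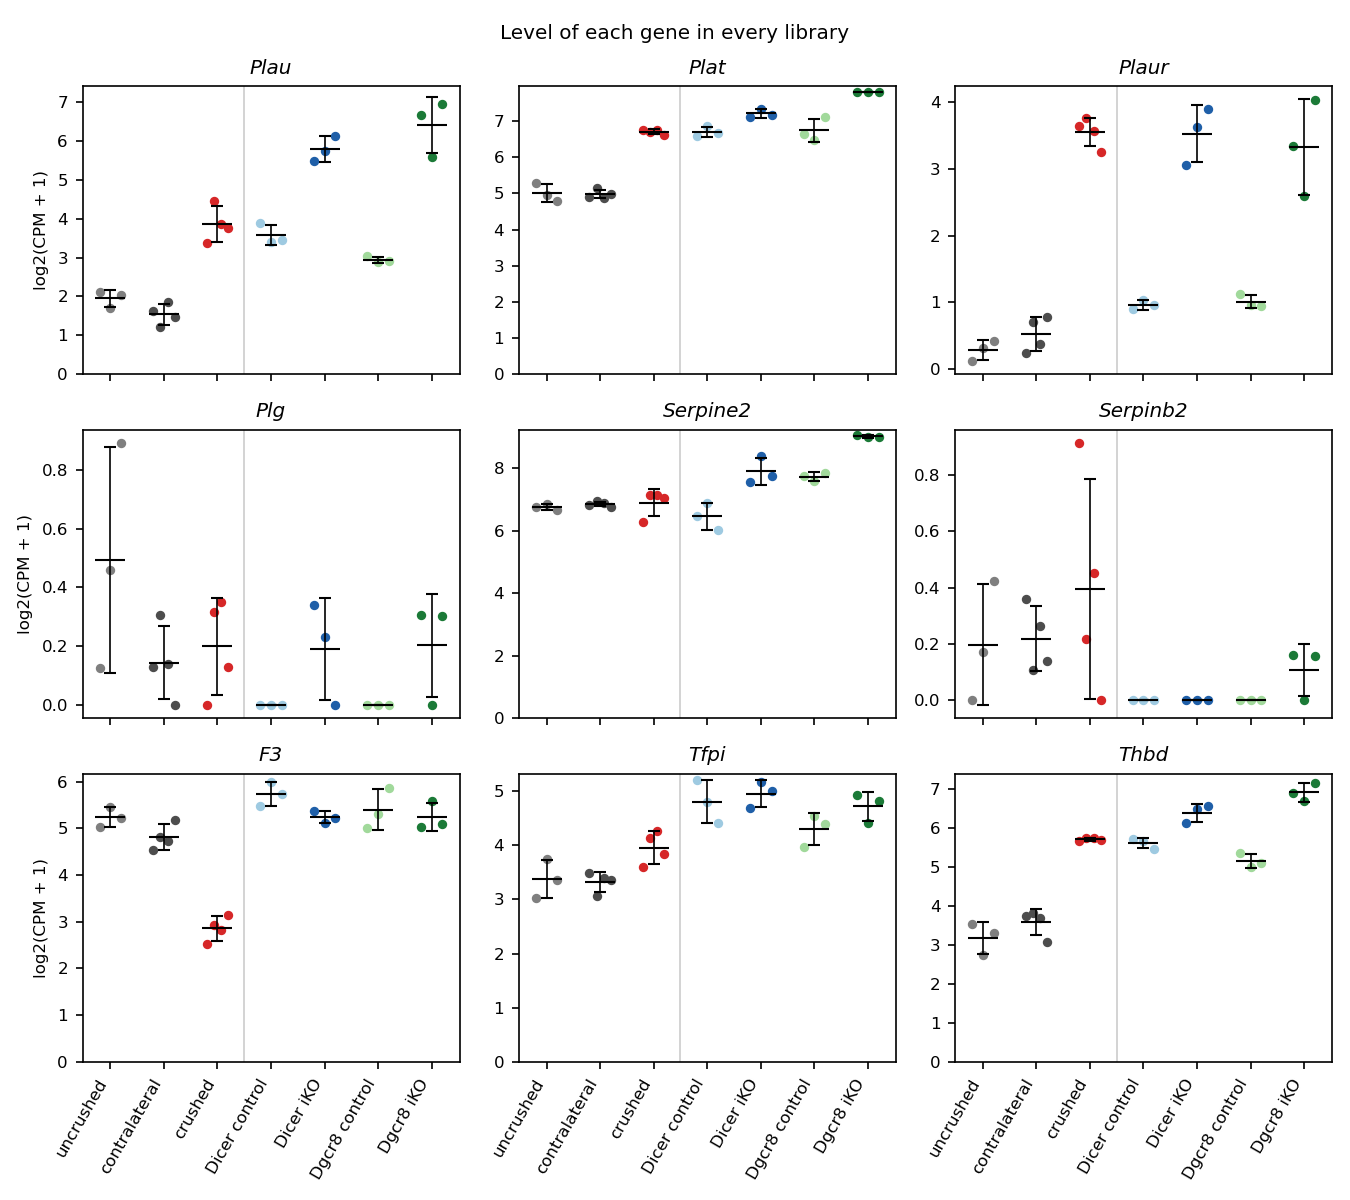
Each panel shows 1 gene, with the level in log2(CPM + 1) for every library (points) and the mean and SD (lines) in the 7 groups, and a grey line parts the crush experiment from the iKO experiment. Crushed nerves lie above all control nerves for *Plau*, *Plat*, *Plaur* and *Thbd* and below them for *F3*, and *Plg* and *Serpinb2* stay below 1 on this scale in every library.

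Sequences before the start site were given by RefSeq (GRCm38.p6) for 5 of the 9 genes (*F3*, *Plaur*, *Serpinb2*, *Serpine2* and *Tfpi*). Those of *F3* and *Plaur* are shown because these are the gene that fell and the gene that rose the most after crush. Each sequence is the 250 bases before the start, 5′ to 3′ on the plus strand, at chr3:121723287-121723536 for *F3* and chr7:24462233-24462482 for *Plaur*. Capitals mark matches to AP-1 (TGANTCA), the GC box (GGGCGG) or EGR (GCGNGGGCG), searched on both strands, where the EGR match of *Plaur* overlaps GC boxes.
F3: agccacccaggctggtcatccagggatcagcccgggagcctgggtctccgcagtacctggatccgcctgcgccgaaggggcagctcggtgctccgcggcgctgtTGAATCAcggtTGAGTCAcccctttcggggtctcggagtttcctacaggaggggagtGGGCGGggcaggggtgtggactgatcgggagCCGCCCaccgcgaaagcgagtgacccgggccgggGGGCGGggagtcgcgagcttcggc
Plaur: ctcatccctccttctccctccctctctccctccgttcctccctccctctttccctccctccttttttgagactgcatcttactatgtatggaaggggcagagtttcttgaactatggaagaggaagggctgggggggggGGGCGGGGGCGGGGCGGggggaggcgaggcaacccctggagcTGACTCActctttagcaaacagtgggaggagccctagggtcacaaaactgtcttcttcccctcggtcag

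*F3* held TGAATCA from 146 to 140 bases and TGAGTCA from 135 to 129 bases before the start, and *Plaur* held TGACTCA from 69 to 63 bases before it. TGAATCA also stood before both starts of *Serpinb2*. AP-1 letters were in 6.75% of the 32851 windows of the same length, the GC box in 32.7% and EGR in 4.7%. *Serpine2* held GC boxes and EGR but no AP-1 letters in its window, and *Tfpi* a GC box before each of its 2 starts. The motifs CRE (TGACGTCA, 1.55% of windows) and E-box (CACGTG, 6.02%) were in none of these windows, and the TATA box (TATAAA, 12.4%) was in those of *Serpinb2* and in 1 of *Tfpi*. These are matches of letters, not binding sites.

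The iKO comparisons asked which of these genes move when microRNA processing is removed from adult Schwann cells without a crush. In Dicer iKO nerves, 3 of 7 tested genes were called higher (*Plau*, *Plaur* and *Serpine2*) and 0 lower, where 7.37% of 13045 tested genes were called higher and 1.64% lower. In Dgcr8 iKO nerves, 5 of 7 were called higher (*Plau*, *Plaur*, *Plat*, *Serpine2* and *Thbd*) and 0 lower, where 13.4% of 13252 tested genes were called higher and 6.99% lower. The median log2 fold change of the 7 genes was 0.80 in Dicer iKO and 1.29 in Dgcr8 iKO, beside -0.00793 and -0.0138 over all tested genes. *Plaur*, which is among these genes, passed the filter on low counts only through the mutant nerves in both comparisons.

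*Plau* was at 9.65 to 13.8 CPM in the 3 Dicer controls and at 43.9, 52.6 and 69.9 CPM in Dicer iKO nerves. In the Dgcr8 experiment it was at 7.20, 6.40 and 6.53 CPM in controls and at 101.0, 47.7 and 123.8 CPM in mutants. No mutant overlapped a control, and Dgcr8 iKO replicate 2 was the lowest of its group by a wide gap. The log2 fold change was 2.32 (SE 0.22, adjusted p = 0.00167) in Dicer iKO and 3.75 (SE 0.32, adjusted p = 9.21e-06) in Dgcr8 iKO.

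Its receptor rose with it. *Plaur* had 6, 8 and 7 counts in Dicer controls and 55, 66 and 100 counts in Dicer iKO nerves. In the Dgcr8 experiment it had 10, 7 and 9 counts in controls and 78, 53 and 132 counts in mutants. Here the controls were above the floor of 3 counts, and no mutant nerve overlapped a control nerve. The log2 fold change was 3.48 (SE 0.34, adjusted p = 0.00191) in Dicer iKO and 3.25 (SE 0.44, adjusted p = 0.000168) in Dgcr8 iKO.

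*Serpine2*, which was not called after crush, rose in both mutants. It was at 87.6, 118.1 and 64.1 CPM in Dicer controls and at 188.6, 335.9 and 217.2 CPM in Dicer iKO nerves, and the log2 fold change was 1.46 (SE 0.28, adjusted p = 0.0118). In the Dgcr8 experiment it was at 217.2, 190.5 and 229.8 CPM in controls and at 540.6, 511.8 and 513.3 CPM in mutants, and the log2 fold change was 1.29 (SE 0.14, adjusted p = 4.14e-05). The 2 control groups thus did not overlap with each other in the level of this gene, and the Dgcr8 controls lay within the range of the Dicer iKO nerves. Crush and iKO effects were not tested against each other.

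Markers of other cell types moved in the mutants too, in both directions. The fibroblast markers (*Pdgfra*, *Dcn*, *Lum*, *Col1a1* and *Col3a1*) summed to 4554 to 14756 CPM in Dicer controls and 19231 to 20480 CPM in Dicer iKO, and to 6062 to 8015 CPM in Dgcr8 controls and 14499 to 17418 CPM in Dgcr8 iKO. In each mutant 3 of 5 were called higher (*Col1a1*, *Col3a1* and *Lum*), and after crush 0 of 5 were called in either direction. *Dcn* (0.02 in Dicer iKO and 0.64 in Dgcr8 iKO) and *Pdgfra* (-0.38 and -0.11) were not called, and the latter had negative log2 fold changes. Of the 5 myelinating Schwann cell markers, 0 were called in Dicer iKO and 3 were called lower in Dgcr8 iKO. None of these markers was at 0 in any whole group. The part of these cells in the mutant levels of *Serpine2* and the other genes was not tested.

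*Plat* passed both thresholds in Dgcr8 iKO only. It was at 99.5, 88.9 and 137.3 CPM in Dgcr8 controls and at 225.5, 223.1 and 224.5 CPM in Dgcr8 iKO nerves, with a log2 fold change of 1.04 (SE 0.16, adjusted p = 0.00043). This lies just past the 2-fold threshold, and without Dgcr8 control replicate 1 or 2 it was 0.98 or 0.91. In the Dicer experiment it was at 95.95 to 114.8 CPM in controls and at 138.4 to 162.5 CPM in mutants, without overlap, and the log2 fold change was 0.51 (SE 0.11, adjusted p = 0.0182).

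*Thbd* was likewise called in Dgcr8 iKO and not in Dicer iKO, and the test of that difference is given with the interaction. It was at 51.4, 49.6 and 43.1 CPM in Dicer controls and at 68.6, 88.5 and 93.6 CPM in Dicer iKO nerves, a log2 fold change of 0.80 (SE 0.14, adjusted p = 0.00933) that is under 2-fold. In the Dgcr8 experiment it was at 40.1, 31.3 and 33.2 CPM in controls and at 117.6, 102.4 and 143.0 CPM in mutants, with a log2 fold change of 1.79 (SE 0.16, adjusted p = 1.09e-05). Mutants and controls did not overlap in either experiment. The summed endothelial markers were at 259 to 289 CPM in Dicer controls, 180 to 203 CPM in Dicer iKO, 293 to 336 CPM in Dgcr8 controls and 186 to 260 CPM in Dgcr8 iKO nerves. Of the 7 markers, 0 were called in Dicer iKO and 1, *Cldn5*, was called lower in Dgcr8 iKO, and the part of endothelial cells in the level of *Thbd* was not tested.

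*F3* was not called in either mutant. It was at 43.5, 62.8 and 52.3 CPM in Dicer controls and at 40.6, 33.6 and 36.5 CPM in Dicer iKO nerves, with a log2 fold change of -0.51 (SE 0.15, adjusted p = 0.0488). These mutants and controls did not overlap, and the fall was not called because it was under 2-fold. In the Dgcr8 experiment it was at 31.3 to 57.6 CPM in controls and at 31.9 to 46.8 CPM in mutants, fully overlapping, with a log2 fold change of -0.19 (SE 0.22, adjusted p = 0.511). *Tfpi* overlapped in both experiments, with log2 fold changes of 0.13 (SE 0.22, adjusted p = 0.713) in Dicer iKO and 0.44 (SE 0.19, adjusted p = 0.0846) in Dgcr8 iKO. *Plg* had 0 counts in all 6 controls and at most 2 in a mutant nerve, and *Serpinb2* had 0 counts in all controls and at most 1 in a mutant nerve.

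**Figure D3:**
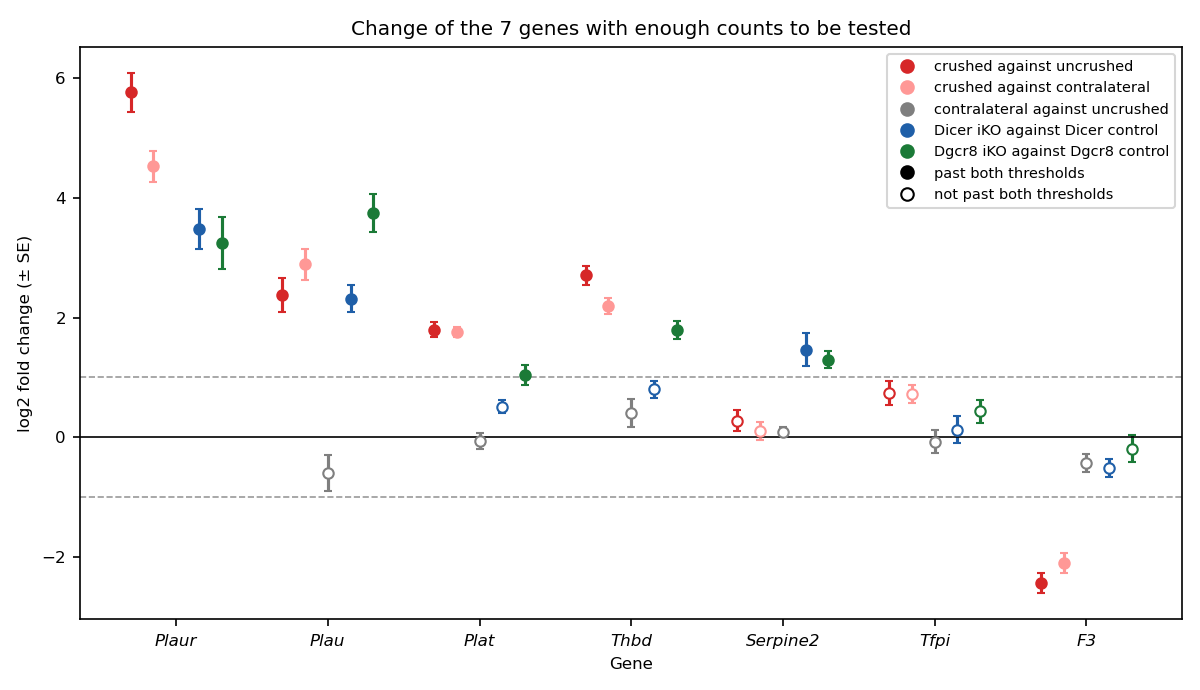
Points give the log2 fold change and bars its SE for the 7 tested genes in 5 comparisons of 2 groups. Filled points pass both thresholds and dashed lines mark a 2-fold change. *Plaur* and *Plau* are filled in all 4 comparisons with crushed or mutant nerves, *Serpine2* in the mutants and not after crush, and *F3* after crush and not in the mutants.

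Whether the Dgcr8 effect differed from the Dicer effect was tested as an interaction over the 12 iKO libraries. None of the 7 tested genes passed an adjusted p of 0.05 in edgeR, where 0.00738% of 13552 tested genes were higher in Dgcr8 and 0.00738% lower. At an unadjusted p under 0.05 there were 3 of the 7 genes and 1861 of all genes. These were *Thbd* with a log2 difference of 0.996 (SE 0.22, adjusted p = 0.141), *Plau* with 1.44 (SE 0.44, adjusted p = 0.198) and *Plat* with 0.53 (SE 0.21, adjusted p = 0.294). DESeq2 called *Thbd* (1.01, adjusted p = 0.00866), where it called 170 genes higher and 65 lower over all genes, and so did edgeR without Dicer control replicate 3 (1.07, adjusted p = 0.0262), where 320 genes were called higher and 81 lower. Over all alternatives the adjusted p of *Thbd* ranged from 0.00866 to 0.325.

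Macrophages are a known source of urokinase and its receptor, and their markers moved with both genes. The 8 markers *Cd68*, *Adgre1*, *Csf1r*, *Aif1*, *Itgam*, *Lyz2*, *Cd14* and *Mrc1* summed to 148 to 173 CPM in uncrushed nerves, 107 to 202 CPM in contralateral nerves and 729.9 to 1685 CPM in crushed nerves, and all 8 were called higher in both crush comparisons. They summed to 308 to 1029 CPM in Dicer controls and 3676 to 6554 CPM in Dicer iKO (5 of 8 called higher), and to 309 to 360.3 CPM in Dgcr8 controls and 2361 to 5685 CPM in Dgcr8 iKO (6 of 8 called higher). None of the 8 markers was at 0 in any whole group. In Dicer iKO the nerves had the same order by *Plau*, *Plaur* and this sum, with replicate 1 lowest and replicate 3 highest, and in Dgcr8 iKO replicate 2 was lowest and replicate 3 highest by all 3 measures. Among crushed nerves, replicate 1 was lowest and replicate 2 highest for *Plau* and for the sum, while *Plaur* was at 11.5 CPM in replicate 1, the second highest value. Side by side, *Plaur* was at 8.58 to 12.5 CPM in crushed nerves and at 5.06 to 15.4 CPM in mutants, while the marker sum of every crushed nerve was below that of every mutant nerve. Markers of repair Schwann cells (*Jun*, *Shh*, *Gdnf*, *Ngfr* and *Olig1*) moved with both genes too. They summed to 61.7 to 81.4 CPM in uncrushed and contralateral nerves and 1412 to 2028 CPM in crushed nerves. In Dicer controls and Dicer iKO they summed to 76.6 to 157.7 and 273 to 314 CPM. In Dgcr8 controls and Dgcr8 iKO they summed to 88.9 to 94.0 and 374 to 471 CPM. All 4 tested were called higher in both crush comparisons and both mutants. By the repair marker sum, crushed replicate 4 was lowest, as it was for *Plaur*, and replicate 1 highest. In Dicer iKO replicate 1 was lowest and 2 highest by this sum, and in Dgcr8 iKO replicate 2 lowest and 1 highest. The fibroblast marker sum was lowest in replicate 2 and highest in 3 in Dgcr8 iKO, but lowest in replicate 3 in Dicer iKO. The part of macrophages, repair Schwann cells or fibroblasts in these changes was not tested. Levels in the 2 experiments come from different kits.

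**Figure D4:**
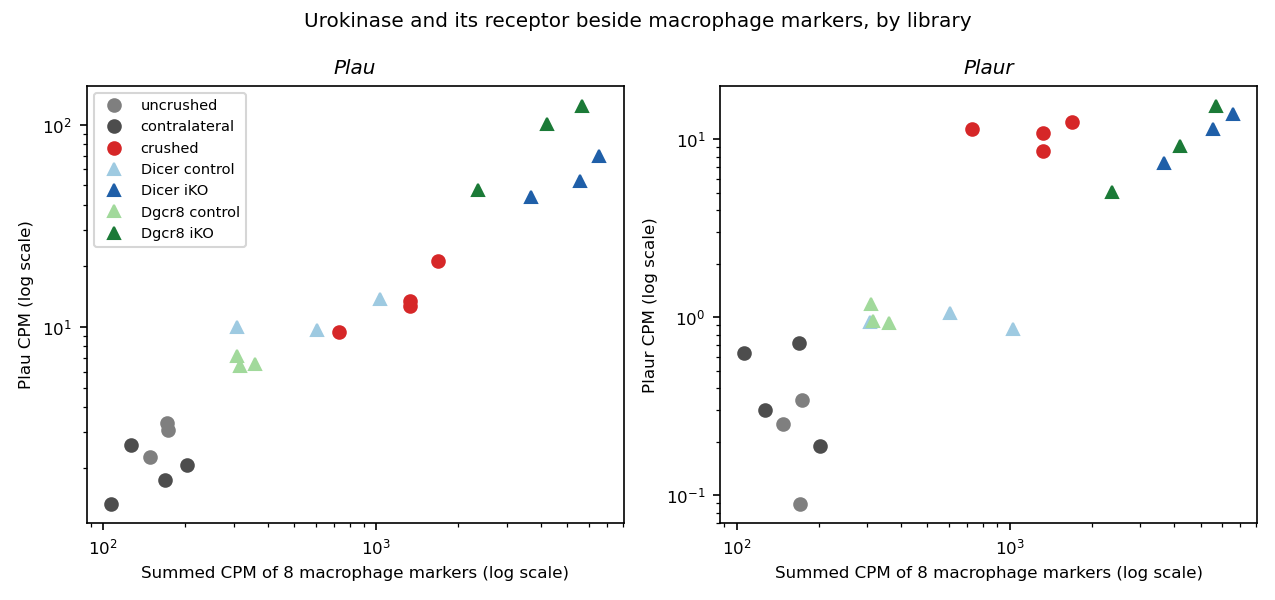
Each point is a library, with the summed CPM of 8 macrophage markers on the x axis and the CPM of *Plau* (left) or *Plaur* (right) on the y axis, both on log scales, and circles for the crush and triangles for the iKO experiment. The mutants lie at the right with 2361 to 6554 CPM of markers, and crushed nerves, at 729.9 to 1685 CPM, reach *Plaur* levels of 8.58 to 12.5 CPM.

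*Plau*, *Plaur*, *Plat*, *Plg* and *Thbd* have a single transcript in the lists used by the authors, so isoforms could be followed only for *Serpine2*, *F3* and *Tfpi*. RSEM divides reads between transcripts, and these shares are estimates. Over 33 shares tested by a two-sided exact permutation test, 0 had a p of at most 0.05 before or after adjustment. The smallest p possible was 0.1 for 3 against 3 nerves, 0.0571 for 4 against 3 and 0.0286 for 4 against 4. With 33 shares adjusted together, no share could have passed 0.05 after adjustment. The adjusted result therefore does not show that isoform use was unchanged. *F3* reads went to the main coding transcript at 93.8% ± 3.9 in uncrushed (SD, n = 3) and 96.3% ± 6.1 in crushed nerves (SD, n = 4). *Serpine2* reads went to the main coding transcript, of 1191 coding bases, at 71.2% ± 2.4 in uncrushed and 71.5% ± 4.4 in crushed nerves, and at 88.7% ± 4.3 to 93.3% ± 1.3 in the iKO groups.

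*Tfpi* transcripts end at 2 sites and encode a longer and a shorter form, so its coding transcripts were also summed by 3′ end. This grouping was chosen after the data had been seen and is given with no test. The longer form (3 transcripts with a coding length of 900 to 918 bases) took 45.6%, 33.1% and 40.4% of the coding counts in uncrushed nerves, 32.1%, 37.7%, 44.1% and 26.8% in contralateral nerves, and 58.1%, 51.0%, 62.6% and 58.4% in crushed nerves. All 4 crushed nerves lay above all 7 control nerves. The shorter form comprised 5 transcripts with a coding length of 705 to 741 bases. In the iKO experiment the longer form took 18.1% ± 6.9 in Dicer controls and 28.4% ± 3.5 in Dicer iKO, and 23.6% ± 5.0 in Dgcr8 controls and 29.7% ± 5.4 in Dgcr8 iKO (SD, n = 3 each), and each pair of groups overlapped. The *Tfpi* counts behind a library's share ranged from 54 to 251.

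**Figure D5:**
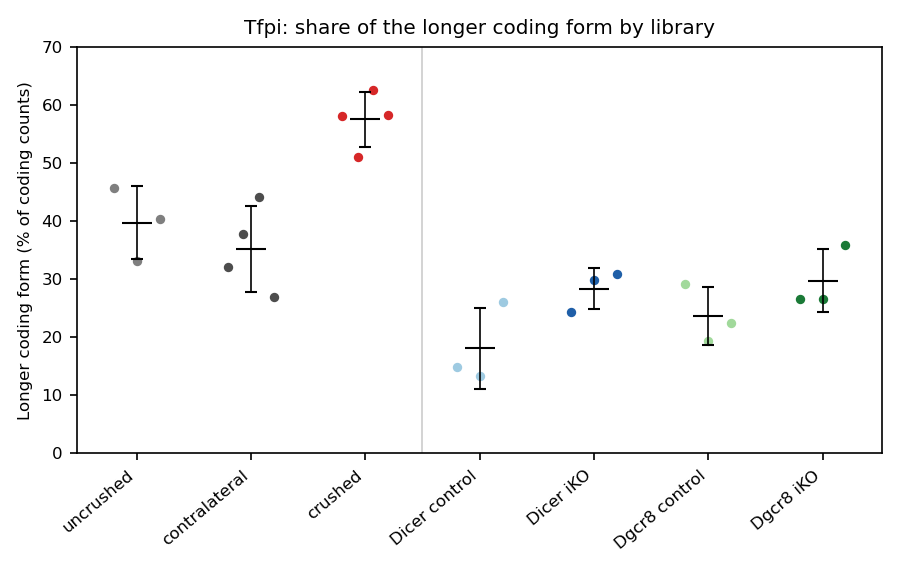
Points give, for every library in the 7 groups, the percentage of coding *Tfpi* counts that RSEM gave to the longer coding form, with lines for the mean and SD. Crushed nerves lie between 51.0% and 62.6% and all control nerves of the crush experiment between 26.8% and 45.6%.

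The genes around the system were counted from 2 lists. The first holds 18 genes, among them receptors, activators and inhibitors of the system, binding partners, related proteases, and growth factors that are akin to plasminogen or can be activated by plasmin. Of these, 13 were tested in crushed against uncrushed nerves, with 5 called higher and 2 lower and a median log2 fold change of 0.65, beside 15.3% of all tested genes called higher and 21.1% lower. The counts against contralateral nerves were equal (median 0.63), beside 14.6% and 13.6% of all tested genes. Called in both were *Tgfb1* (2.62 and 2.73), a growth factor whose latent form plasmin can activate, *Anxa2* (1.86 and 1.61) and *S100a10* (1.33 and 1.36), which together form a plasminogen receptor, *Igf2r* (1.70 and 1.46), and *Hgf* (1.24 and 1.62), a growth factor related to plasminogen in structure. *Vtn*, vitronectin, a ligand of uPAR, was lower (-1.91 and -2.22), as was *Masp1* (-2.61 and -3.12), a serine protease of the lectin pathway of complement. In Dicer iKO 2 of 12 were called higher and 0 lower (median 0.62), beside 7.37% and 1.64% of all tested genes, and in Dgcr8 iKO 6 of 13 higher and 2 lower (median 0.81), beside 13.4% and 6.99%. *Hgf* (2.84 and 4.65) and *Tgfb1* (1.77 and 1.96) were called in both mutants.

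Of 30 coagulation genes, 18 were tested against uncrushed nerves, with 8 called higher and 2 lower (median 0.82), beside the same 15.3% and 21.1% of all tested genes. Against contralateral nerves 16 were tested, with 8 higher and 1 lower (median 1.02), beside 14.6% and 13.6%. Among those called higher, *F2rl1*, *Tfpi2* and *F10* had means of 0.50 to 0.96 CPM in uncrushed and contralateral nerves. They were not tested between these 2 groups and passed the filter only through the crushed nerves. The filter thus favoured calls of higher, and the counts and medians include such genes. Called in both were *F5* (3.41 and 3.87), the cofactor of factor Xa, *F10* (2.11 and 2.11), its zymogen, and *Tfpi2* (2.57 and 2.59), an inhibitor of plasmin and other proteases. *Pros1* (2.49 and 2.55) encodes protein S, a cofactor of activated protein C and of tissue factor pathway inhibitor. *F13a1* (2.01 and 2.5) and *Tgm2* (1.91 and 1.80) encode transglutaminases, the first of which cross-links fibrin, and *F2rl1* (1.47 and 1.77) encodes a protease-activated receptor. *Serpind1*, heparin cofactor II, an inhibitor of thrombin, was lower (-5.54 and -5.88). In Dicer iKO 2 of 12 were called higher and 0 lower (median 0.11), beside 7.37% and 1.64% of all tested genes, and in Dgcr8 iKO 5 of 13 higher and 2 lower (median 0.53), beside 13.4% and 6.99%. *Tfpi2* (2.60 and 2.36) and *Pros1* (1.12 and 1.5) were called in both. *F5*, called higher in Dgcr8 iKO, was at 0 CPM in Dgcr8 controls and passed the filter only through the mutant nerves. In contralateral against uncrushed nerves and in the interaction, 0 genes of either list were called.

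The genes most like each of the 9 were named by the Pearson r of log2(CPM + 1) over the 23 libraries, after the mean of each experiment had been subtracted, among 12970 genes. The crush libraries share the crush contrast and the iKO libraries the mutant contrasts, so this is a description of the pattern only. Most like *Plau* were *Slc15a3* (r = 0.982), *Arhgap25* (0.981) and *Cdk6* (0.98), and most like *Plaur* were *Sgpl1* (0.983), *Myo5a* (0.982) and *Ptpn1* (0.981). *Plat* was followed by *Calr* (0.982), *Syt4* (0.977) and *Tubb3* (0.976), and *Thbd* by *Pi4k2b* (0.975), *Sox4* (0.972) and *Eif4a1* (0.972). *F3* was followed by *Pik3r1* (0.956), *Fam107a* (0.948) and *Dnal1* (0.947). The best matches of *Serpine2*, *Itga2* (0.884), *Impa1* (0.881) and *Cdh6* (0.865), and of *Tfpi*, *Tor4a* (0.892), *Pitpnc1* (0.883) and *Dse* (0.883), were looser. *Plg* and *Serpinb2* were too low for this measure.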

How the data were processed

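Total RNA of 23 sciatic nerve libraries was sequenced. By the labels, crush libraries were made with a SMARTer pico-input kit and iKO libraries with TruSeq and Ribo-Zero, whereas the methods of the study describe TruSeq for all. The authors used Trimmomatic to trim reads, STAR to align them to GRCm38 and RSEM to count them per Ensembl transcript. These deposited values are expected counts, estimated per transcript and not normalized, and were used for every test, and the deposited TPM values, scaled by the authors with RSEM to transcript length and depth, only to set genes against each other within a library. Deposited FPKM values were not used.

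The expected counts of a gene's transcripts were added up and rounded. The 9 genes and the lists of other genes and markers were chosen with earlier results of these data known. Gene positions came from GENCODE and start sites from RefSeq. Tests used R 4.3.3 and edgeR 4.0.16 with filterByExpr (minimum count 10), TMM normalization, the quasi-likelihood test and Benjamini-Hochberg adjustment over all genes tested. The SE was taken as the log2 fold change over the root of its F statistic. CPM values were TMM-normalized over all libraries of an experiment. Transcript shares needed at least 20 counts per library. All 9 genes were named in every comparison. Genes of the lists were named if called in both crush comparisons or in both mutants. For likeness, a gene needed a mean of at least 1 CPM in each experiment. A marker of the lists is not reported here. The test was tested on simulated data. No library was a copy of another replicate (27 pairs, chi-square per degree of freedom 4.36 to 42.4). The labels do not say that replicates are separate animals, but the methods count mice, so p-values measure the spread between mice of a group. Uncrushed replicate 3 is numbered 4 in its description. The alternatives were RLE normalization, other filters, DESeq2 1.42.0, edgeR's exact test, all groups in 1 fit, a threshold of 0.01, a replicate block, and each replicate left out.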

Additional observations from a re-analysis of the deposited data

Results flagged for a closer look

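*Serpine2* in crushed replicate 1, at 76.73 CPM, was far from the other 3 crushed nerves, which lay between 132.7 and 140.8 CPM. The gap was larger than Dixon's 95% limit for 4 samples. This was 1 of 18 groups of 4 nerves examined in this way, and chance flags about 1 in 20. The same library had the lowest macrophage marker sum of the crushed nerves (729.9 CPM) and the most *Serpinb2* counts of all libraries (11). Its part in the *Serpine2* comparison is seen without it, when the log2 fold change was 0.42 (adjusted p = 0.0022) against uncrushed and 0.24 (adjusted p = 0.0112) against contralateral nerves.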

How the results depend on the processing

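Of 624 alternative values of a log2 fold change of the 9 genes, 609 kept their direction and their side of the thresholds, and 183 of 185 alternative counts of called genes stayed within 1.5 times. The calls of *Plau*, *Plaur*, *Plat*, *Thbd* and *F3* after crush and of *Plau* and *Plaur* in the mutants held under every alternative that gave a value. So did those of *Serpine2* and *Thbd* in Dgcr8 iKO. For the Dgcr8 effect minus the Dicer effect, the number of the 9 genes called higher was 0, but 1 (*Thbd*) with DESeq2 and between 0 and 1 with a replicate left out. *Serpine2* in Dicer iKO (1.46, adjusted p = 0.0118) misses a threshold of 0.01. All 9 reversed signs came from leaving out a replicate of a gene that was not called: *Serpine2* against contralateral nerves ranged from -4.81e-05 to 0.24, in contralateral against uncrushed nerves *Plat* from -0.16 to 0.14 and *Tfpi* from -0.24 to 0.18, *Tfpi* in Dicer iKO from -0.058 to 0.35, *F3* in Dgcr8 iKO from -0.38 to 0.091, and in the interaction *Plaur* from -0.70 to 0.10 and *Serpine2* from -0.41 to 0.13. The cause was not tested. The difference of the longer *Tfpi* form stayed positive after crush with any nerve left out (14.5 to 20.8 points against uncrushed, 19.6 to 25.3 against contralateral nerves). A minimum of 50 counts per library changed 0 of the 33 transcript shares tested and so could not change their outcome.

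Counts over all genes moved by over 1.5 times in some fits. Crushed against uncrushed gave 1747 higher in place of 2673 with at least 10 counts in every sample. Dicer iKO gave 548 higher and 92 lower with the replicate block, and 522 and 58 at the threshold of 0.01, in place of 961 and 214, and leaving out Dicer control replicate 2 or a Dicer iKO nerve gave 515 to 1036 higher and 57 to 375 lower. Contralateral against uncrushed gave 0 higher and 31 lower with DESeq2, 2 and 161 with the exact test, 13 and 128 without a filter, and up to 95 lower without uncrushed replicate 2. The interaction gave 170 higher and 65 lower with DESeq2, and 17 and 3 without a filter, in place of 1 and 1.

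Crushed and contralateral nerves come from the same operated mice, but it is not stated that a number marks a mouse, and the tests treat the nerves as independent. The correlations of same-numbered nerves' deviations ranged from -0.204 to 0.225 over the 5 comparisons, not all above 0.1 in any of them, which does not settle the pairing. In fits with a replicate block, the counts of the 9 genes called were 4 higher and 1 lower in both crush comparisons, 3 higher in Dicer iKO, 5 higher in Dgcr8 iKO and 0 in the interaction, as without it. Depth limits *Plg* and *Serpinb2*, which were at or near the floor of 3 counts, and the control level of *Plaur* in the crush experiment. It also limits the fold changes of some list genes. Mean levels were 0.54 and 0.50 CPM for *Tfpi2* and 0.75 and 0.68 CPM for *F10* in uncrushed and contralateral nerves. *Masp1* was at 0.27 CPM in crushed nerves and *Hgf* at 0.84 CPM in Dgcr8 controls.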
